A study of Mus musculus with 28 samples.

Results

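The genes described here are Trp63, Sox9, Lhx2, Nfatc1, Lgr5, Lgr6, Lrig1, Cd34 and Ly6a, chosen by name because they mark or maintain the stem cells of the mouse epidermis and hair follicle. They are 9 of the 47729 gene IDs in the count tables, and all 9 had enough reads to be tested, among 17299 genes in all. The epidermis is renewed by basal keratinocytes that depend on the transcription factor p63, encoded by Trp63. The hair follicle keeps separate pools of stem cells: the bulge is marked by CD34, SOX9, LHX2 and NFATc1, its lower end and the hair germ by LGR5, and the upper follicle by LRIG1 and LGR6, the last of which is also found in interfollicular epidermis. Sca1, encoded by Ly6a, marks basal cells of the interfollicular epidermis and upper follicle and is low on bulge cells.

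The question of the study was how skin that has been inflamed once behaves afterwards. Skin of C57BL/6 mice, labelled female and aged 60 days after birth when treatment began, was given imiquimod, a cream that activates Toll-like receptor 7 and inflames skin, or the control cream Vanicream, for 6 days. Cells positive for integrin α6, integrin β1 and Sca1 and negative for CD34 were sorted, so cells bearing the bulge marker CD34 on their surface were left out of every library and Ly6a and Cd34 are genes of the sort itself. RNA sequencing covered 16 libraries in 8 groups of 2. The groups were imiquimod and control at the end of treatment (day 6), imiquimod and control 30 days after treatment (day 30), and imiquimod and control in dorsal skin given full-thickness wounds at that time and taken 6 h or 12 h afterwards. The labels do not say whether the 2 libraries of a group came from separate mice, so the p-values measure the spread between these libraries.

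Total counts ran between 23623968 and 76993427 per library. The day 6 libraries numbered 1 held 7.65% (imiquimod) and 3.31% (control) mitochondrial counts, against at most 2.48% in the others. The day 30 libraries numbered 1 went against their female label, with 6023 (imiquimod) and 7830 (control) counts on Y-linked genes and 1 and 0 counts of Xist. Every other library had at most 2 Y-linked counts and at least 11484 Xist counts. By these counts, the 2 libraries of each day 30 group did not come from the same mouse. Itga6, the basal keratinocyte integrin α6 of the sort, was between 484 and 2306 counts per 1000000 counts (CPM, on library sizes scaled by the TMM method) in each library. CPM values are not corrected for gene length, so levels are compared between libraries and not between genes.

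Imiquimod at day 6 changed 3 of the 9 genes: Sox9 rose, and Lgr6 and Trp63 fell. Across all genes tested, 36.6% were called in the same comparison, at an adjusted p under 0.05 in edgeR's quasi-likelihood test. The 3 of 9 did not exceed that share. At day 30 and in wounds made then, none of the 9 was called between imiquimod and control, where at most 0.0347% of all genes were. Wounding itself moved 5 or 6 of the 9 in each of the 4 comparisons with unwounded day 30 skin, where 38.7% and 37.6% of all genes were called at 6 h and 12 h after imiquimod and 34.7% and 30.8% after control cream. In all 4, Sox9, Nfatc1 and Lgr6 fell and Ly6a rose.

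**Figure D1:**
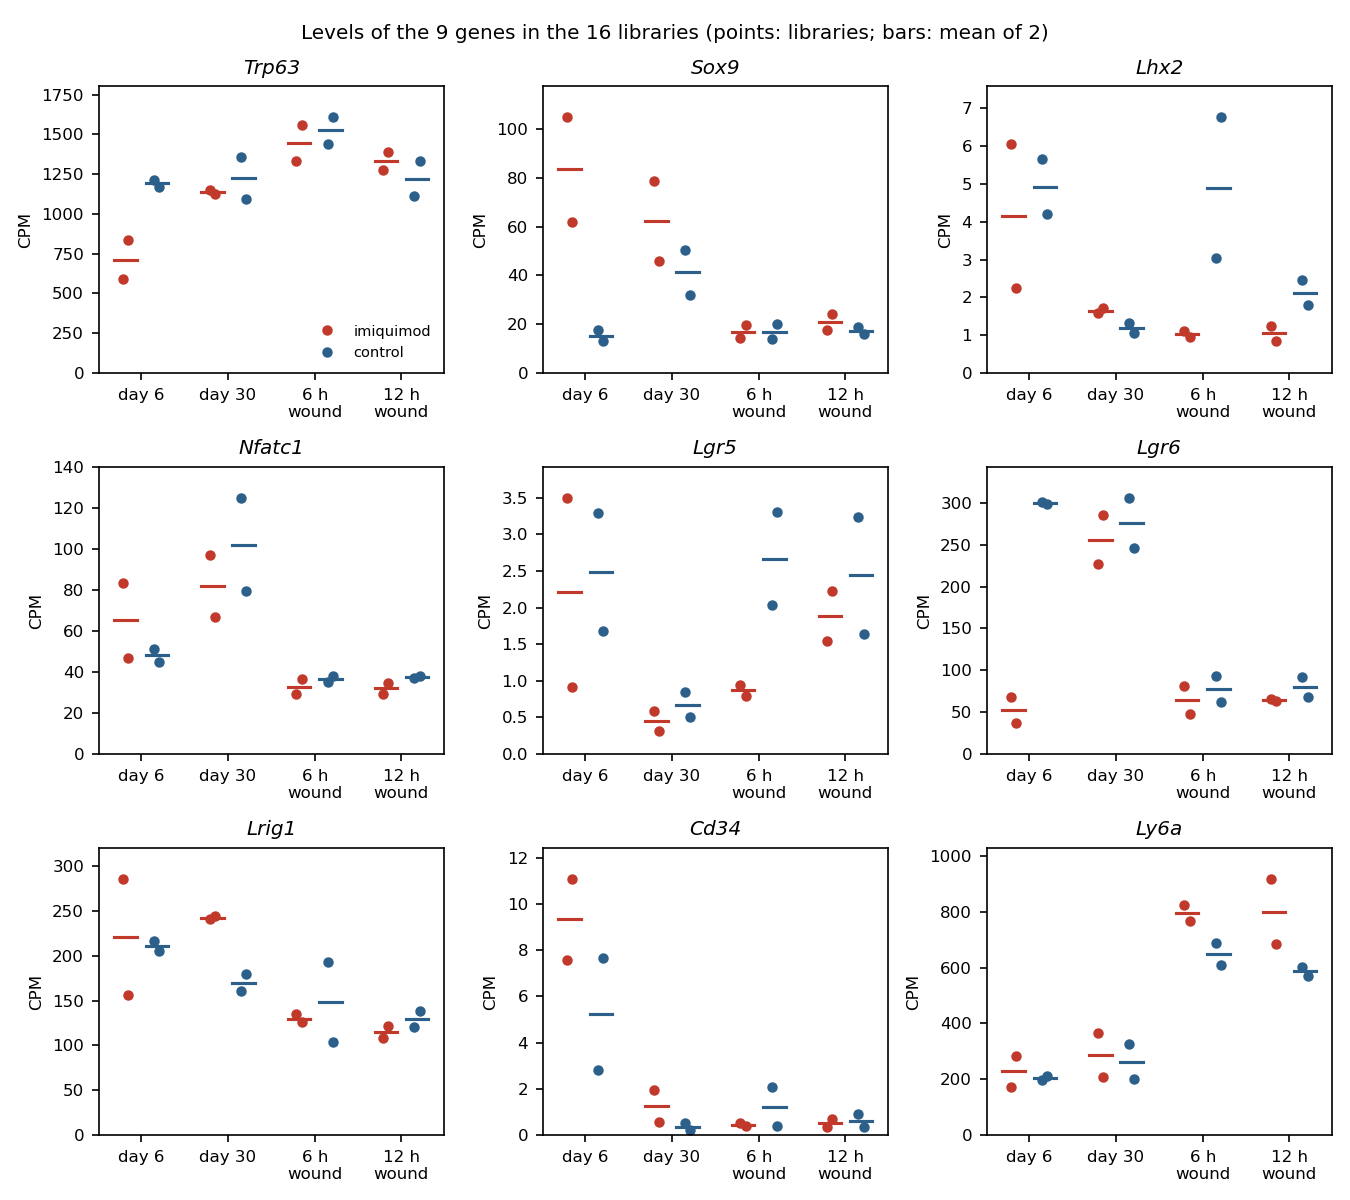
CPM of each of the 9 genes in each library (points) with the mean of 2 libraries (bars), by time point on the horizontal axis and with imiquimod left of control. Lgr6 sat between 227 and 306 CPM in day 6 control and day 30 libraries and between 36.6 and 93 CPM in all others.

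Trp63 encodes p63, the transcription factor that stratified epithelia need (ENSMUSG00000022510.14, chr16:25683763-25892088, GRCm38). Its levels were 590 and 834 CPM in the day 6 imiquimod libraries, against 1216 and 1171 CPM in the day 6 control libraries. Both imiquimod values lay below every other library of the series, which ranged from 1096 to 1611 CPM. The fall at day 6 was 1.68-fold (log2 change -0.75 ± 0.21 SE, adjusted p = 0.0123). It missed the threshold without the first day 6 imiquimod library, the one with 7.65% mitochondrial counts (log2 change -0.54, adjusted p = 0.0779). With both day 6 libraries numbered 1 left out, an alternative added after seeing the data, it was -0.49 (adjusted p = 0.19). In these bulk samples, fewer cells that express a gene and less of its RNA per cell cannot be told apart.

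No later change of Trp63 passed the test. At day 30 imiquimod libraries held 1151 and 1127 CPM, against 1359 and 1096 CPM in day 30 control libraries. In 6 h wounds it held 1330 and 1559 CPM after imiquimod, against 1440 and 1611 CPM after control cream. In 12 h wounds it held 1277 and 1389 CPM after imiquimod, against 1112 and 1331 CPM after control cream. Imiquimod and control overlapped at each of these times. After imiquimod both wound groups lay above the day 30 libraries, and after control cream the 6 h group did, while the 12 h group overlapped them. The log2 changes of wounded over day 30 skin were between -0.01 and 0.34, each with an SE of 0.20, and none passed. The imiquimod effect at day 6 minus that at day 30 was -0.64 ± 0.29, which did not pass the test (adjusted p = 0.135). It passed with the replicate number as a block (-0.67, adjusted p = 0.0383), a fit that called 5927 of all genes there, against 3894.

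Among 23 tested genes that p63 is known to control or act with, imiquimod at day 6 raised 4 and lowered 6, with a median log2 change of -0.07 against 0.10 for all genes. In that comparison 36.6% of all genes were called. The largest called changes of the list were those of Satb1, a chromatin organiser (-3.65 ± 0.43), Ovol1, a transcription factor of differentiating keratinocytes (2.65 ± 0.53), and Fgfr2, a growth factor receptor (-2.03 ± 0.29). In wounds the same list had 2 higher and 4 lower (6 h) and 3 higher and 6 lower (12 h) after imiquimod, and 6 higher and 5 lower (6 h) and 3 higher and 5 lower (12 h) after control cream. The shares of all genes called at 6 h and 12 h were 38.7% and 37.6% after imiquimod and 34.7% and 30.8% after control cream. Klf4, a factor of suprabasal differentiation, fell in all 4 wound comparisons, with log2 changes of -1.63 and -2.11 at 6 h and 12 h after imiquimod and of -1.42 and -1.95 after control cream. Ovol1, higher with imiquimod at day 6, fell in all 4 as well, with log2 changes between -2.60 and -1.52.

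Sox9 encodes a transcription factor of bulge and outer root sheath cells that is normally scarce in interfollicular epidermis (ENSMUSG00000000567.5, chr11:112782210-112787757). The day 6 imiquimod libraries held 105 and 62 CPM, against 17.6 and 13 CPM in the day 6 control libraries. The 2 groups were far apart, and the lower imiquimod library was still several times the higher control one. Sox9 rose 5.46-fold at day 6 (log2 change 2.45 ± 0.36, adjusted p = 0.00034). The first imiquimod library, with the higher mitochondrial share, was also the one with more Sox9; with both day 6 libraries numbered 1 left out the call held, as it did in each of the 12 alternatives run (log2 changes between 2.00 and 2.76).

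At day 30 Sox9 stood at 78.5 and 46.1 CPM in imiquimod libraries, against 50.5 and 31.9 CPM in control libraries. The groups overlapped, although in both same-numbered pairs, which deviated together, the imiquimod library was the higher. The log2 difference of 0.60 ± 0.34 did not pass the test, with or without the replicate block. The imiquimod effect at day 6 exceeded that at day 30 by 1.85 ± 0.49 on the log2 scale (adjusted p = 0.0189). That difference lost its call in 6 of 16 alternatives, among them those without the first day 6 imiquimod library (adjusted p = 0.0675), the second day 6 control library (0.0789), the second day 30 imiquimod library (0.0775) or the first day 30 control library (0.0744). The control groups themselves differed, since Sox9 was 2.69-fold higher in day 30 control than in day 6 control skin (log2 change 1.43 ± 0.35, adjusted p = 0.0154); time, age and library preparation cannot be told apart in that comparison. The call was lost without either day 6 control library (0.0528 and 0.108) or without the first day 30 control library (0.107).

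In wounds Sox9 was at levels that overlapped those of the unwounded day 6 control libraries (17.6 and 13 CPM). At 6 h it held 14.2 and 19.7 CPM after imiquimod, against 14 and 20 CPM after control cream. At 12 h it held 17.6 and 24.3 CPM after imiquimod, against 18.9 and 15.9 CPM after control cream. All 8 wound libraries lay below the 4 unwounded day 30 libraries, whose lowest was 31.9 CPM. The fall against unwounded day 30 skin was 3.68-fold at 6 h (log2 change -1.88 ± 0.35, adjusted p = 0.00153) and 2.97-fold at 12 h (-1.57 ± 0.35, adjusted p = 0.00443) after imiquimod. After control cream it was 2.43-fold at 6 h (-1.28 ± 0.35, adjusted p = 0.0149) and 2.37-fold at 12 h (-1.24 ± 0.35, adjusted p = 0.0189). The control values rested on single libraries: without the first day 30 control library, which went against its sex label, the adjusted p was 0.109 at 6 h and 0.129 at 12 h. The call at 6 h was also lost without the first 6 h control library (0.111), and the call at 12 h without either 12 h control library (0.0721 and 0.129).

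**Figure D2:**
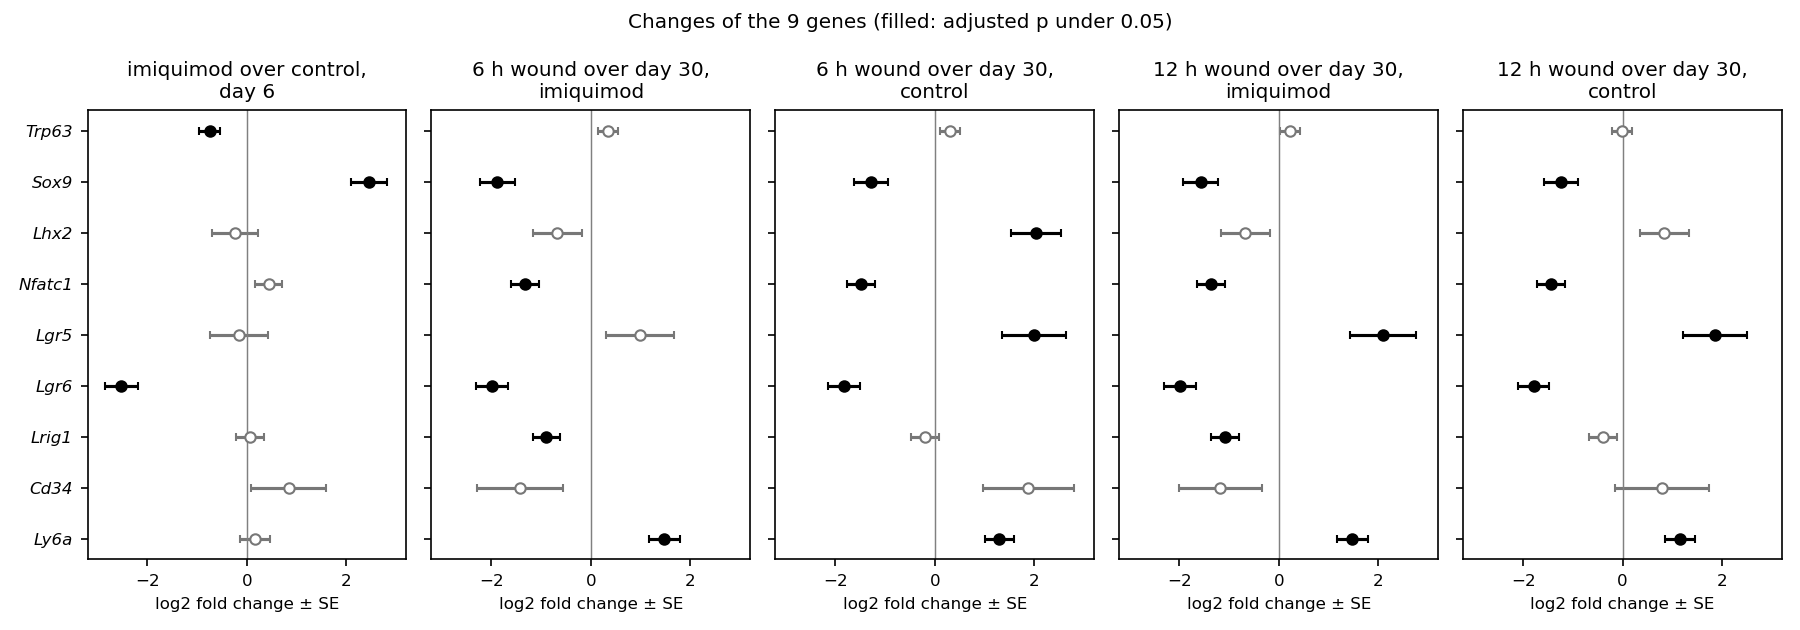
Log2 fold change with its SE for each of the 9 genes in 5 comparisons, with filled points for an adjusted p under 0.05. Sox9 lies right of 0 at day 6 (2.45) and left of 0 in all 4 wound comparisons, while Lgr6 lies left of 0 in all 5.

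Lhx2 encodes a LIM homeodomain factor that keeps bulge stem cells in their undifferentiated state, and had 24 to 320 reads per library here (ENSMUSG00000000247.11, chr2:38339271-38369737). Day 6 imiquimod libraries held 6.05 and 2.25 CPM, against 5.66 and 4.21 CPM in day 6 control libraries, with overlap. Day 30 imiquimod libraries held 1.58 and 1.72 CPM, against 1.32 and 1.06 CPM in day 30 control libraries. Its levels in wounds were lower after imiquimod than after control cream, but the difference did not pass the main test at either time. The values at 6 h were 1.11 and 0.948 CPM after imiquimod, against 3.03 and 6.78 CPM after control cream. Those at 12 h were 1.25 and 0.844 CPM after imiquimod, against 2.46 and 1.8 CPM after control cream. The groups did not overlap at either time, but an exact permutation test of 2 against 2 libraries cannot go below 0.333.

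The rise of Lhx2 in 6 h wounds over day 30 skin after control cream was 4.10-fold (log2 change 2.03 ± 0.50, adjusted p = 0.00701). Without the second 6 h control library it was 1.36 on the log2 scale (adjusted p = 0.0882), and without the second day 30 control library the adjusted p was 0.0507. At 12 h after control cream the change was 0.84 ± 0.49 and did not pass (adjusted p = 0.216). Unwounded day 6 control libraries held 5.66 and 4.21 CPM of Lhx2, between the 3.03 and 6.78 CPM of 6 h wounds after control cream. After imiquimod the changes at 6 h and at 12 h were each -0.67 ± 0.49 and did not pass. The difference of imiquimod from control in 6 h wounds was -2.22 ± 0.49, with an unadjusted p of 0.000561 and an adjusted p of 0.249, so it did not pass the test over all genes. It passed in 2 of the 12 alternatives, DESeq2 (adjusted p = 0.00331) and edgeR with no filter on low counts (adjusted p = 5.31e-05). These 2 settings called 131 and 441 of all genes in the same comparison, against 6 in the main fit. In 12 h wounds the difference of imiquimod from control was -1.03 ± 0.48 and did not pass (unadjusted p = 0.0506, adjusted p = 1). The second 6 h control library, highest for Lhx2, also held 61.1 CPM of the inner root sheath and hair shaft keratins Krt25, Krt35 and Krt71 summed, genes picked after their values were seen, against 4.63 CPM in the first and at most 7.23 CPM in any other library; their part in the result was not tested. The first 6 h control library had 3.03 CPM of Lhx2 with that keratin sum at 4.63 CPM. The library at 7.23 CPM, the second at 6 h after imiquimod, had 0.948 CPM of Lhx2. The first day 6 libraries, at 6.05 (imiquimod) and 5.66 CPM (control) of Lhx2, had keratin sums of 0.481 and 6.72 CPM. The 14 hair germ and shaft genes that include these keratins summed to 943 CPM in the second 6 h control library and 756 CPM in the first. In the other libraries they summed to between 404 and 881 CPM.

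Lhx2 was lower in day 30 control than in day 6 control skin (log2 change -2.06 ± 0.49, adjusted p = 0.0124). The call was lost without the first day 6 control library (0.0671), without the second day 30 control library (0.0624), and without both day 30 libraries numbered 1 (0.0531). Among 12 tested genes of the Sox and Lhx families, Sox9 and Lhx2 included, imiquimod at day 6 raised 3 and lowered 3. In that comparison 36.6% of all genes were called. Sox6, a partner of Sox5, fell at day 6 (-2.21 ± 0.59) and in all 4 wound comparisons (between -2.55 and -1.73). Sox7 rose at day 6 (1.93 ± 0.44), and Sox15 was higher in wounds at 12 h after imiquimod (1.62 ± 0.36) and after control cream (1.44 ± 0.36).

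Nfatc1 encodes a transcription factor regulated by calcineurin that holds bulge stem cells in quiescence (ENSMUSG00000033016.15, on chromosome 18). Day 6 imiquimod libraries held 83.5 and 46.9 CPM, against 51.4 and 45.1 CPM in day 6 control libraries. The groups overlapped, and the log2 difference of 0.44 ± 0.27 did not pass. Day 30 imiquimod libraries held 97 and 67 CPM, against 125 and 79.5 CPM in day 30 control libraries, which also overlapped. In wounds Nfatc1 was down to 29.1 and 36.4 CPM at 6 h after imiquimod, against 35.3 and 38.2 CPM after control cream. At 12 h it was 29.1 and 34.8 CPM after imiquimod, against 37.3 and 38.2 CPM after control cream. Every wound library lay below every unwounded library of the series, whose lowest was 45.1 CPM.

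The fall of Nfatc1 against day 30 skin was 2.50-fold at 6 h (log2 change -1.32 ± 0.28, adjusted p = 0.00268) and 2.56-fold at 12 h (-1.36 ± 0.28, adjusted p = 0.00243) after imiquimod. After control cream it was 2.78-fold at 6 h (-1.48 ± 0.28, adjusted p = 0.00173) and 2.71-fold at 12 h (-1.44 ± 0.28, adjusted p = 0.00231). All 4 calls held in the 12 alternatives run for each. Summed CPM of 13 suprabasal genes ran between 6495 and 10360 in wounds and between 16661 and 33402 in unwounded day 30 skin. At day 6 the sums were 7975 and 19516 in imiquimod and 5443 and 8514 in control libraries. In those control libraries Nfatc1 stood at 51.4 and 45.1 CPM, Lgr6 at 301 and 299 CPM and Sox9 at 17.6 and 13 CPM. The part of the suprabasal shift in the wound falls of Nfatc1, Sox9 and Lgr6 was not tested. Among 12 tested genes of the NFAT and calcineurin pathway, Nfatc1 included, 2 were higher and 5 lower at 6 h and 2 higher and 3 lower at 12 h after imiquimod, and 2 were higher and 3 lower at each time after control cream. The shares of all genes called at 6 h and 12 h were 38.7% and 37.6% after imiquimod and 34.7% and 30.8% after control cream. The calcineurin subunit Ppp3cc fell in 3 of the 4 comparisons (-0.87 at 6 h after imiquimod, -1.07 at 6 h and -0.92 at 12 h after control cream). Prlr, the prolactin receptor, fell at 6 h after imiquimod (-1.25 ± 0.35) and after control cream (-1.28 ± 0.35), and Rcan1, a calcineurin inhibitor, fell at 12 h (-0.87 ± 0.19 and -0.91 ± 0.19 in the same order).

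Lgr6 encodes a receptor for R-spondins, secreted proteins that keep Wnt receptors at the cell surface (ENSMUSG00000042793.13, chr1:134983300-135105374). Day 6 imiquimod libraries held 67.9 and 36.6 CPM, against 301 and 299 CPM in day 6 control libraries. The fall was 5.73-fold (log2 change -2.52 ± 0.33, adjusted p = 0.000157). Summed CPM of 12 macrophage and monocyte markers was 78.4 and 93.1 in the same imiquimod libraries, against 20.5 and 10.9 in the control libraries, with none of the 12 at 0 in an imiquimod library; their part in the result was not tested. At day 30 the levels were 227 and 286 CPM in imiquimod libraries, against 306 and 246 CPM in control libraries, and the groups overlapped (log2 change -0.11 ± 0.31). The imiquimod effect at day 6 minus that at day 30 was -2.41 ± 0.45 on the log2 scale (adjusted p = 0.00323).

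Wounds again had low Lgr6. At 6 h it held 81.1 and 47.4 CPM after imiquimod, against 93 and 61.8 CPM after control cream. At 12 h it held 65.4 and 63.3 CPM after imiquimod, against 91.4 and 68.5 CPM after control cream. All 8 wound libraries were at or below 93 CPM, their range overlapped that of the day 6 imiquimod libraries, and the treatments overlapped at 6 h and not at 12 h. Against day 30 skin, Lgr6 fell 3.98-fold at both 6 h (log2 change -1.99 ± 0.32, adjusted p = 0.000565) and 12 h (-1.99 ± 0.32, adjusted p = 0.000599) after imiquimod. After control cream it fell 3.56-fold at 6 h (-1.83 ± 0.32, adjusted p = 0.00118) and 3.45-fold at 12 h (-1.79 ± 0.32, adjusted p = 0.00158). The 5 calls and the difference between day 6 and day 30 held in every alternative run.

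The bases just before the annotated start of Lgr6, which fell in all 5 of these comparisons, and of Lrig1, which fell in wounds after imiquimod, are shown with each CG dinucleotide in capitals, because promoters are classed by how many of these they hold. Sequences are RefSeq's for GRCm38.p6, minus strand, 5′ to 3′, and end at the base before the annotated gene. The first is chr1:135105375-135105526 and the second chr6:94700299-94700395.
Lgr6: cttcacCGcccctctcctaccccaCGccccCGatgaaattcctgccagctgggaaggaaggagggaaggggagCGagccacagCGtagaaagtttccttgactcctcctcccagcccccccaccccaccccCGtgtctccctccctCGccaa
Lrig1: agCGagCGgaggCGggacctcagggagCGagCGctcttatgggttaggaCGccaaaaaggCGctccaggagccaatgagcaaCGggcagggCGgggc
The Lgr6 stretch of 152 bases held 7 CG dinucleotides, a number reached by 28.9% of the 32851 promoter windows cut to the same length. The Lrig1 stretch of 97 bases held 9, a number reached by 10.4% of the windows cut to its length. Each window was cut from its own first base, so the cut need not end at an annotated gene start, as the Lgr6 and Lrig1 stretches do. Of the 9 genes, 4 matched an entry of the promoter table.

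Lgr5, the relative of Lgr6 that marks the lower bulge and hair germ, had few reads, 9 to 186 per library (ENSMUSG00000020140.15, chr10:115450314-115587780). Day 6 imiquimod libraries held 3.5 and 0.92 CPM, against 3.29 and 1.68 CPM in day 6 control libraries. Day 30 imiquimod libraries held 0.589 and 0.31 CPM, against 0.851 and 0.502 CPM in day 30 control libraries. Imiquimod and control overlapped at both times and neither difference passed the test. In wounds the levels at 6 h were 0.948 and 0.79 CPM after imiquimod, against 2.03 and 3.3 CPM after control cream. At 12 h they were 1.54 and 2.22 CPM after imiquimod, against 3.24 and 1.64 CPM after control cream. The treatments did not overlap at 6 h and overlapped at 12 h, and the difference at 6 h did not pass (log2 change -1.59 ± 0.61, unadjusted p = 0.0215, adjusted p = 0.666).

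Unwounded day 6 control libraries held 3.29 and 1.68 CPM of Lgr5, within the 1.64 to 3.3 CPM of wounds after control cream. Against day 30 skin, Lgr5 and Lgr6 moved in opposite directions in wounds. Lgr5 rose 4.26-fold at 12 h after imiquimod (log2 change 2.09 ± 0.66, adjusted p = 0.025), and after control cream 3.97-fold at 6 h (1.99 ± 0.64, adjusted p = 0.0287) and 3.64-fold at 12 h (1.86 ± 0.64, adjusted p = 0.0411). At 6 h after imiquimod its change of 0.99 ± 0.68 did not pass. These calls depended on single libraries. After imiquimod, the call at 12 h was lost without the second day 30 library (adjusted p = 0.178) or the second 12 h library (0.122). After control cream, the call at 6 h was lost without the first day 30 library (0.0548), the second (0.157) or the second 6 h library (0.146), and that at 12 h without the first day 30 library (0.0732), the second (0.2) or the first 12 h library (0.242). Leaving out both day 30 libraries numbered 1 ended all 3 calls (adjusted p = 0.0575 at 12 h after imiquimod, 0.065 at 6 h and 0.0854 at 12 h after control cream).

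Among 11 tested genes of the R-spondin and Lgr axis, Lgr5 and Lgr6 included, imiquimod at day 6 lowered 6 and raised none, with a median log2 change of -1.05 against 0.10 for all genes. In that comparison 15% of all genes were lowered and 21.6% raised. Rspo3, a secreted R-spondin, had 0.0401 and 0.317 CPM in day 6 imiquimod libraries, against 20.5 and 43.5 CPM in day 6 control libraries (-7.65 ± 0.89, adjusted p = 0.000102). Tnfrsf19, a receptor found in hair follicle stem cells and a Wnt target, had 64.2 and 101 CPM in imiquimod libraries, against 534 and 532 CPM in control libraries (-2.69 ± 0.27, adjusted p = 1.92e-05). Both were far below control in both imiquimod libraries. Axin2, a Wnt target and inhibitor (-1.75 ± 0.18), and the ligases Znrf3 (-1.41 ± 0.15) and Rnf43 (-1.05 ± 0.19), which remove Wnt receptors unless R-spondin and an LGR bind them, also fell. Lgr4, the third receptor of the family, had 55.5 and 45.8 CPM in imiquimod libraries, against 55 and 55.3 CPM in control libraries, and its change of -0.12 ± 0.15 did not pass.

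In wounds the axis had 6 lower and none higher at 6 h and 6 lower and 1 higher at 12 h after imiquimod, and 4 lower and 1 higher at each time after control cream. The shares of all genes called at 6 h and 12 h were 38.7% and 37.6% after imiquimod and 34.7% and 30.8% after control cream. The gene of the axis that was higher was Lgr5. The median log2 changes were -0.76 and -1.09 after imiquimod and -0.29 and -0.40 after control cream, against values between -0.02 and 0.02 for all genes. Rspo3 stood at 1.2 and 0.671 CPM at 6 h and 1.2 and 0.715 CPM at 12 h after imiquimod, against 15 and 22.8 CPM in the day 30 imiquimod libraries. After control cream it stood at 2.5 and 0.524 CPM at 6 h and 1.61 and 1.72 CPM at 12 h, against 18.5 and 21.9 CPM at day 30. Every wound library was below every day 30 library. Axin2 fell in wounds after imiquimod (-0.82 ± 0.18 at 6 h and -1.25 ± 0.18 at 12 h) and its changes after control cream did not pass (-0.29 ± 0.18 and -0.40 ± 0.18); the day 30 levels of Axin2 were 82 and 94.9 CPM in imiquimod and 53.2 and 74.3 CPM in control libraries, and the difference between the treatments' wound effects was not called by edgeR for Axin2.

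**Figure D3:**
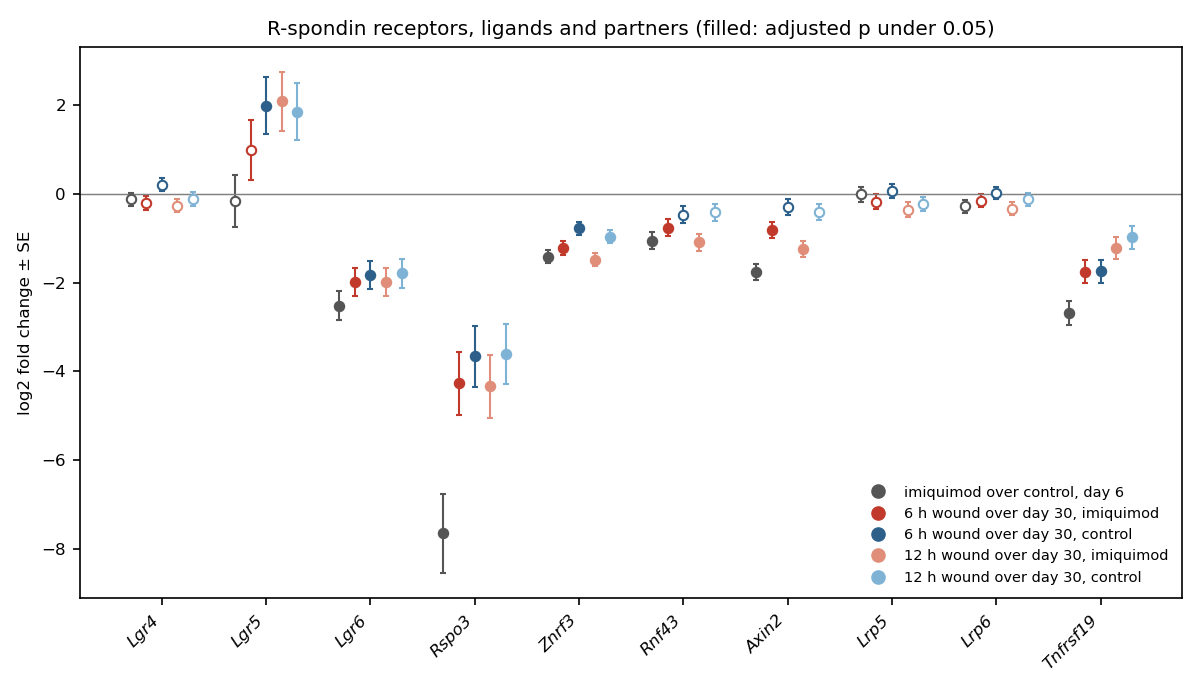
Log2 fold change with its SE for Lgr4, Lgr5, Lgr6 and 7 further genes of the R-spondin axis in 5 comparisons, filled where the adjusted p was under 0.05; Rspo1, listed at 0 in both day 30 control libraries, is left out. Rspo3 and Lgr6 lie below 0 throughout, and Lgr5 lies above 0 in the wound comparisons.

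Lrig1 encodes a membrane protein of the upper follicle that dampens signalling by the epidermal growth factor receptor (ENSMUSG00000030029.14, chr6:94604529-94700298). At day 6 imiquimod libraries held 286 and 156 CPM, against 216 and 205 CPM in day 6 control libraries, the control values lying between the imiquimod ones. At day 30 imiquimod libraries held 241 and 244 CPM, against 161 and 180 CPM in day 30 control libraries. These groups did not overlap, but the log2 difference of 0.51 ± 0.28 did not pass the test (unadjusted p = 0.0902). At 6 h wounds held 135 and 126 CPM after imiquimod, against 193 and 104 CPM after control cream. At 12 h they held 108 and 122 CPM after imiquimod, against 120 and 138 CPM after control cream. The end of Lrig1 overlaps that of Slc25a26, which had 9437 reads over all libraries. With counts taken as unstranded, the reads in the shared bases cannot be told apart.

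Lrig1 fell in wounds after imiquimod, 1.86-fold at 6 h (log2 change -0.89 ± 0.28, adjusted p = 0.0229) and 2.10-fold at 12 h (-1.07 ± 0.28, adjusted p = 0.00959). After control cream its changes were -0.20 ± 0.28 at 6 h and -0.40 ± 0.28 at 12 h and did not pass. The wound effect after imiquimod minus that after control cream was -0.70 ± 0.39 at 6 h and -0.67 ± 0.39 at 12 h, neither of which passed, so the 2 treatments were not shown to differ. The call at 6 h was lost without any of its 4 libraries (adjusted p-values between 0.0652 and 0.12), and that at 12 h without the first 12 h imiquimod library (0.0716).

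The list of 9 tested genes around LRIG and epidermal growth factor receptors, Lrig1 included, had no gene higher and 3 lower with imiquimod at day 6. In that comparison 36.6% of all genes were called. The 3 genes of the list were Met, the hepatocyte growth factor receptor (adjusted p = 0.00624), Lrig3 (-0.87 ± 0.17) and Egfr (-0.37 ± 0.13). Lrig3 fell in all 4 wound comparisons (-1.20 at 6 h and -1.60 at 12 h after imiquimod, -0.87 and -1.10 after control cream). Lrig2 fell in all 4 as well (-0.52 and -0.76 after imiquimod, -0.62 and -0.61 after control cream). Errfi1, an inhibitor of the receptor, fell at 12 h after imiquimod (-2.09 ± 0.58).

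Cd34 encodes the bulge surface marker by whose absence the cells were sorted, and had 7 to 379 reads per library (ENSMUSG00000016494.9, chr1:194938821-194961292). At day 6 imiquimod libraries held 7.59 and 11.1 CPM, against 2.83 and 7.66 CPM in day 6 control libraries. These 4 libraries were the highest of the series, and imiquimod and control overlapped (log2 change 0.84 ± 0.75, not passed). At day 30 Cd34 stood at 1.95 and 0.585 CPM in imiquimod libraries, against 0.52 and 0.207 CPM in day 30 control libraries. At 6 h wounds held 0.512 and 0.395 CPM after imiquimod, against 2.08 and 0.375 CPM after control cream. At 12 h they held 0.367 and 0.715 CPM after imiquimod, against 0.907 and 0.33 CPM after control cream. The groups of each wound time overlapped, and none of the 4 wound changes passed the test. With no filter on low counts, Cd34 was called at 6 h in opposite directions, lower after imiquimod (-1.37, adjusted p = 0.0182) and higher after control cream (1.95, adjusted p = 0.000757). Each change was called in only 1 of its 12 alternatives. That setting called 6859 and 6242 of 30802 genes in the same order. Leaving out 1 library at a time from the filtered fit gave log2 changes from -2.09 to -0.36 after imiquimod and from 0.12 to 2.63 after control cream.

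Cd34 was lower in day 30 control than in day 6 control skin (log2 change -3.91 ± 0.93, adjusted p = 0.013), a call lost without the second day 6 control library (0.0688) or the second day 30 control library (0.0826). Col3a1, a fibroblast collagen, held 65.2 and 155 CPM in day 6 imiquimod libraries, against 50 and 112 CPM in day 6 control libraries. It held 32.3 and 0.413 CPM in day 30 imiquimod libraries, against 0.284 and 1.24 CPM in day 30 control libraries, and at most 8.88 CPM in wounds. The 11 fibroblast markers other than Thy1, which was set apart after seeing its level, summed to between 216 and 578 CPM in day 6 libraries and to between 18 and 176 CPM in all later ones, with none at 0 in a day 6 library and up to 4 at 0 in a later one. Thy1 went the other way: with it, the 12 markers summed to between 285 and 637 CPM in day 6 libraries, between 137 and 356 CPM in day 30 libraries and between 341 and 490 CPM in wounds, so that day 6 and wounds overlapped. Their part in the level of Cd34 was not tested.

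**Figure D4:**
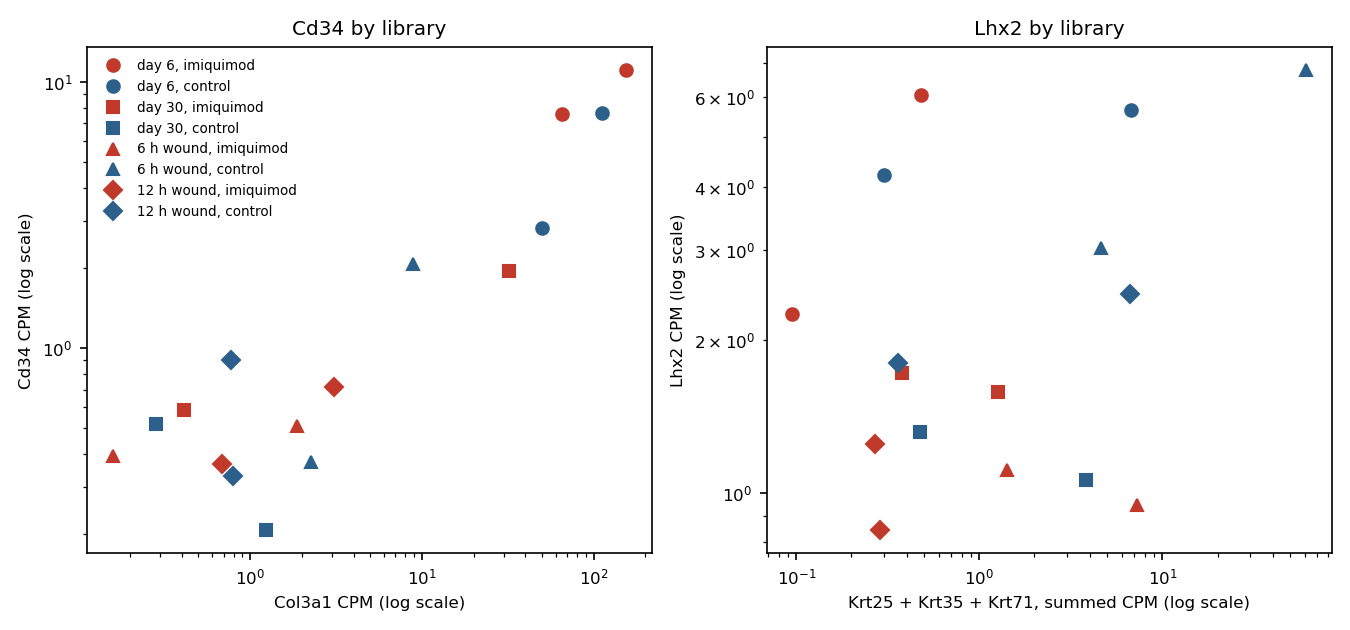
CPM of Cd34 against Col3a1 and of Lhx2 against summed Krt25, Krt35 and Krt71, 1 point per library, on log axes. Cd34 is highest in the 4 day 6 libraries, where Col3a1 is between 50 and 155 CPM, and the library highest for Lhx2 (6.78 CPM) is the one with 61.1 CPM of the keratins. The first day 6 imiquimod and control libraries, at 6.05 and 5.66 CPM of Lhx2, have 0.481 and 6.72 CPM of the keratins. The keratins were picked after their values were seen.

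Ly6a encodes Sca1, the surface protein for whose presence the cells were sorted (ENSMUSG00000075602.10, chr15:74994877-74998031). At day 6 imiquimod libraries held 173 and 284 CPM, against 197 and 210 CPM in day 6 control libraries. At day 30 Ly6a stood at 366 and 207 CPM in imiquimod libraries, against 326 and 200 CPM in control libraries. Imiquimod and control overlapped at both times. In wounds Ly6a reached 825 and 769 CPM at 6 h and 919 and 684 CPM at 12 h after imiquimod. After control cream it reached 687 and 608 CPM at 6 h and 604 and 570 CPM at 12 h. Every wound library was above every unwounded one, and at each time both imiquimod libraries were above both control libraries, a difference that did not pass the test (log2 change 0.30 ± 0.30 at 6 h and 0.45 ± 0.30 at 12 h).

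Against day 30 skin, Ly6a rose 2.78-fold at 6 h (log2 change 1.48 ± 0.31, adjusted p = 0.00223) and 2.80-fold at 12 h (1.48 ± 0.31, adjusted p = 0.0023) after imiquimod. After control cream it rose 2.46-fold at 6 h (1.30 ± 0.30, adjusted p = 0.00561) and 2.23-fold at 12 h (1.16 ± 0.30, adjusted p = 0.012). The last of these was lost without the second day 30 control library (0.0909) or the first 12 h control library (0.0549). Itgb1, the integrin β1 of the same sort, also rose in all 4 comparisons (1.31 and 1.27 after imiquimod, 1.14 and 1.15 after control cream), whereas Itga6 did not pass in any (between -0.19 and 0.11). Ly6a has close relatives on the same chromosome, and no source used here says how reads shared with them were counted, so its level is uncertain to that extent.

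Of 10 tested genes of the Ly6 family, Ly6a included, imiquimod at day 6 raised 2, Lypd3 (2.17 ± 0.33), found in suprabasal keratinocytes, and the interferon-inducible Ly6e (1.69 ± 0.18). In that comparison 36.6% of all genes were called. In wounds 3 of the family were higher and 2 lower at 6 h and 3 higher and 3 lower at 12 h after imiquimod, and 2 higher and 5 lower at 6 h and 2 higher and 3 lower at 12 h after control cream. The shares of all genes called at 6 h and 12 h were 38.7% and 37.6% after imiquimod and 34.7% and 30.8% after control cream. Ly6c1 rose with Ly6a after imiquimod (1.49 ± 0.53 at 6 h and 1.80 ± 0.54 at 12 h). Ly6g6e fell in all 4 comparisons (-2.08 and -1.90 after imiquimod, -2.89 and -2.40 after control cream).

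Day 30 control against day 6 control skin called 5 of 9, where 21.3% of all genes were called. These were Sox9 and Nfatc1, higher at day 30, and Lhx2, Lgr5 and Cd34, lower. Nfatc1 was 2.12-fold higher (log2 change 1.08 ± 0.28, adjusted p = 0.017) and Lgr5 3.76-fold lower (-1.91 ± 0.64, adjusted p = 0.0489). The call of Lgr5 was lost without any of the 4 libraries (adjusted p-values between 0.0574 and 0.254). That of Nfatc1 was lost without either day 6 control library (0.072 and 0.103) or the first day 30 control library (0.136). The effect of imiquimod at day 6 differed from that at day 30 for 2 of the 9, Sox9 and Lgr6, where 22.5% of all genes were called.

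The comparisons that ask whether earlier imiquimod left a difference called none of the 9. edgeR called 0.0116% of all genes at day 30, 0.0347% in 6 h wounds and 0% in 12 h wounds, and 0.202% for the mean of the 3. At an unadjusted p under 0.05 the members counted 0 at day 30, 2 in 6 h wounds (Lhx2 and Lgr5), 0 in 12 h wounds and 2 for the mean, again Lhx2 (-0.93 ± 0.28) and Lgr5 (-0.84 ± 0.37). Of all 17299 genes, 716, 1091, 425 and 1143 passed that unadjusted threshold in the same 4 comparisons. DESeq2 called none of the 9 at day 30 or in 12 h wounds, where it called 20 and 27 of all genes. In 6 h wounds it called Lhx2 among 131 genes in all. The difference between the wound effects after imiquimod and after control cream also called none of the 9, and 0% of all genes, at 6 h and at 12 h in edgeR. At an unadjusted p under 0.05 these differences counted 2 of the 9 at 6 h (Lhx2, -2.70 ± 0.70, and Cd34, -3.30 ± 1.26) and 1 at 12 h (Lhx2, -1.51 ± 0.69), where 1057 and 503 of all genes did. DESeq2 called none of the 9, and 27 and 1 of all genes, in these differences. Between 12 h and 6 h wounds none of the 9 was called by edgeR or DESeq2, against 0.173% of all genes after imiquimod and 0.647% after control cream; at an unadjusted p under 0.05 only Lhx2 after control cream counted (-1.19 ± 0.47), where 1858 of all genes did after imiquimod and 2381 after control cream.

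Over the 16 libraries the genes whose log2 CPM followed a member most closely, as a description over samples that share groups and depth, differed between members. Of the genes tested, 10031 or 10032 were searched for each member, as set out below. Lgr6 was followed by Ptpn14 (Pearson r = 0.976), Kif3c (0.969) and Sfxn3 (0.968). Trp63 was followed by Slco2a1 (0.955), Met (0.947) and Ifngr1 (0.944). Ly6a was followed by Mrpl52 (0.961), Itgb1 (0.958) and Rras2 (0.958). Cd34 was followed by Vim (0.935) and Col3a1 (0.908), both abundant in fibroblasts, and by Rps18 (0.903). For Sox9 the closest gene was Ttll7 (0.913), for Nfatc1 Lmf1 (0.932), for Lrig1 Neurl1b (0.905), for Lhx2 Dtx3 (0.856) and for Lgr5 Parp2 (0.827). Among the members, the highest correlation was between Sox9 and Nfatc1 (0.77) and the lowest between Lrig1 and Ly6a (-0.80). Of the 27 genes ranked in the first 3 by Pearson, 5 were also in the first 3 by Spearman.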

How the data were processed

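Per the labels' protocols, RNA of the sorted cells was extracted with Trizol and a kit from Zymo and sequenced from Illumina TruSeq libraries. The submitters' processing notes name STAR and mm10; its version, the gene annotation and the strand setting are not stated in them, and the counts were taken as unstranded. The deposited files hold raw read counts per gene, whole numbers that the authors made without normalization, 1 file per library. Of 47729 gene IDs, 47224 matched a RefSeq symbol (GRCm38.p6). No exon lengths were used, so levels were not set per length. The 12 ATAC-seq samples were not analysed here.

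Total counts were 23623968 to 76993427 per library (a ratio of 3.26), and the common coefficient of biological variation was 23%. Counts were tested with edgeR 4.0.16 in R 4.3.3: TMM scaling, filterByExpr with a count minimum of 10, 17299 genes, 1 quasi-likelihood fit over the 8 groups with 8 residual degrees of freedom, and Benjamini-Hochberg adjustment over all genes tested, with a threshold of 0.05. CPM used the same scaling, and errors of CPM are SDs over 2 libraries. Errors of log2 changes are SEs worked back from the test, as the absolute change over the square root of its F statistic. An exact permutation test of 2 against 2 cannot go below 0.333 and was not used. The fit was tested on simulated counts.

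The replicate numbers pair the libraries: within each time point, imiquimod and control libraries with the same number deviated together (correlations of 0.22, 0.452, 0.539 and 0.323 at day 6, day 30, 6 h and 12 h; between times from -0.285 to 0.115). A fit with that block within time points, DESeq2 1.42.0, relative log expression (RLE) scaling, no count filter, only the compared libraries, thinning to 23623968 counts, and leaving out libraries were the alternatives.

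All 9 genes are named in every comparison. Of the lists, up to 3 called genes with the largest change and a mean of at least 1 log2 CPM were named, and further genes of a list were named after their values were seen. For likeness, the 3 genes with the highest Pearson r were taken. The members and lists were chosen with earlier results of these data known.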

Additional observations from a re-analysis of the deposited data

Results flagged for a closer look

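The effect of imiquimod differed between day 6 and day 30 for 2 of the 9 genes, by a test of the difference itself in edgeR. The same test called 22.5% of all genes, a share that 2 of 9 did not exceed. For Sox9 the effect at day 6 minus that at day 30 was 1.85 ± 0.49 on the log2 scale (adjusted p = 0.0189), with both day 6 imiquimod libraries above both day 6 control libraries; it lost its call in 6 of 16 alternatives. For Lgr6 it was -2.41 ± 0.45 (adjusted p = 0.00323), with both day 6 imiquimod libraries below both day 6 control libraries.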

How the results depend on the processing

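Of the 32 called results of the 9 genes, 16 kept their call in every alternative run, and none changed direction. Between imiquimod and control in 6 h wounds, 2 of the 9 were called with no low count filter (Lhx2 and Lgr5) and 1 in DESeq2 (Lhx2), against 0. These settings called 441 and 131 of all genes there, against 6 in the main fit. For the mean of the 3 later imiquimod effects 1 was called with no filter, and for the difference of the 6 h wound effects 2 (Lhx2 and Cd34), against 0 each. All-gene calls with no filter were 532 and 255 in these comparisons, against 35 and 0. With both day 30 libraries numbered 1 left out, 3 members were called in 12 h control wounds, against 5, and 1 in day 30 over day 6 control skin, against 5. In fits of only the compared libraries, the last comparison called 3 and the difference between the imiquimod effects at day 6 and day 30 called 1, against 2. Those fits called 1034 and 1802 of all genes in the same order, against 3677 and 3894 in the main fit. With both day 6 libraries numbered 1 left out, an alternative chosen after seeing the data, that difference called 1. With the replicate number as a block it called 4, adding Trp63 (-0.67, adjusted p = 0.0383) and Nfatc1 (0.69, adjusted p = 0.0308). Of all 17299 genes, that fit called 5927 in the same difference, against 3894 in the main fit. For the members, the block changed no other call count. Leaving out 1 library at a time gave 2 to 4 calls for imiquimod at day 6, 4 to 4 and 5 to 6 for 6 h and 12 h wounds after imiquimod, 4 to 5 and 2 to 4 after control cream, 1 to 3 for the difference of day 6 and day 30, 1 to 2 for day 30 over day 6 control, and 0 to 0 for the others. RLE scaling moved the median log2 change of all genes by between -0.0273 and 0.0155. On raw totals, 9 of 72 group levels moved by more than 1 SD. Lgr5, Cd34 and Lhx2 had as few as 9, 7 and 24 reads in a library; thinning to the smallest library ended calls of Lgr5 and none of Cd34 or Lhx2.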
